A study of Mus musculus with 6 samples.

Results

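The genes described here are those that let pyruvate into liver mitochondria and decide between its main fates there. They are the subunit genes Pdha1, Pdhb and Dlat of the pyruvate dehydrogenase complex, the kinase genes Pdk1, Pdk2 and Pdk4, and the phosphatase gene Pdp2. The carrier genes Mpc1 and Mpc2 and the carboxylase gene Pcx complete the set. All 10 were found by symbol among 55414 annotated genes, and all 10 were among the 11134 genes abundant enough to test.

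Liver RNA came from male mice aged 12 weeks that had fasted for 16 hours, a condition shared by every group. Mice of the floxed control genotype, labelled Gapfl, drank plain water. Mice lacking Gapdh in hepatocytes, labelled GapAlb KO, drank plain water or water containing 5% serine. Gapdh encodes the glycolytic enzyme glyceraldehyde 3-phosphate dehydrogenase. Each of the 3 groups had 2 libraries, each a pool of RNA from 2 mice, so the tests measure the spread between pools rather than between animals. No serine-fed control group was analysed here, and the labels used here name no Cre driver line. Liver cells other than hepatocytes would keep the gene in such a deletion.

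The mitochondrial pyruvate carrier, a heterodimer of the Mpc1 and Mpc2 products, brings cytosolic pyruvate through the inner membrane. The pyruvate dehydrogenase complex then oxidises it to acetyl-CoA, or pyruvate carboxylase turns it into oxaloacetate, the first step of gluconeogenesis from pyruvate. Kinases of the Pdk family phosphorylate the alpha subunit of the first enzyme of the complex and switch it off, and phosphatases of the Pdp family reverse this. Pdk4 is the kinase gene best known for its induction by fasting, through PPAR alpha and FOXO factors, which spares pyruvate for glucose production.

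Gapdh itself stood at 1091 and 1391 FPKM in the controls and at 17.0 to 23.8 FPKM in the 4 knockout libraries, so the genotype labels matched the libraries. FPKM counts sequenced fragments scaled to the gene's length and to the library's total. Steps between low values implied 17530000 to 19440000 fragments per library. The lowest value of any of the 10 genes in any library still rested on about 352 fragments (Pdk4 in control replicate 2). Replicate libraries correlated at 0.965 to 0.970 over the genes tested, and the median gene differed between replicates by 0.21 to 0.23 on the log2 scale. Hepatocyte markers, 7 genes in all, summed to 64303 and 70226 FPKM in controls, 52844 and 64102 FPKM in knockouts on water, and 61090 and 56672 FPKM on serine. Every knockout library was thus below both controls in these markers, and the part of this in the results was not tested.

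The promoter windows of the 4 genes with an unadjusted p under 0.05 in both comparisons with control are printed here, since these 4 had the smallest p of the 10 there. Each runs from 250 bases before to 50 bases after the annotated start, is read 5′ to 3′ along the gene, and comes from RefSeq on GRCm38.p6, a different build from that of the deposited coordinates. Capitals mark matches, on either strand, to short motifs: AGGTCA (a core element of nuclear receptors), GTAAACA (FOXO), TGACG (the core of the cyclic AMP response element), CACGTG (an E-box) and TGTTCT (a glucocorticoid receptor element).
Pdk4, chr6:5496229-5496528, minus strand: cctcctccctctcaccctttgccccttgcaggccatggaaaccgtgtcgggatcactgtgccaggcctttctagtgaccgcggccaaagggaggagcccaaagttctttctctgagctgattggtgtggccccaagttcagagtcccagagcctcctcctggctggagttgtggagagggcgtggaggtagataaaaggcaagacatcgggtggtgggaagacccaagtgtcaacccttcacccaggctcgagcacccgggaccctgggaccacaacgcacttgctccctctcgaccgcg
Pdk2, chr11:95041322-95041621, minus strand: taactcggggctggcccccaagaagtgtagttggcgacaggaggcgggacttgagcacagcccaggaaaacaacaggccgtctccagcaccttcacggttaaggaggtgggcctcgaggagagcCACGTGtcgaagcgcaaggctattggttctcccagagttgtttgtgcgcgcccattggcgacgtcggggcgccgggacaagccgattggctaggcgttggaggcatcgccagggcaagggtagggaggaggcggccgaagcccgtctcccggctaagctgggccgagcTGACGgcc
Dlat, chr9:50659731-50660030, minus strand: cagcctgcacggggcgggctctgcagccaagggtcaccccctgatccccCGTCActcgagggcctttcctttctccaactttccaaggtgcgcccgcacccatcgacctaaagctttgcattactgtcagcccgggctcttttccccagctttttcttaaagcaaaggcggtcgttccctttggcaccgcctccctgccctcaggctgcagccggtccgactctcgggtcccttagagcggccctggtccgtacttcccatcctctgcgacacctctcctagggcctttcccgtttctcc
Pdha1, chrX:160138381-160138680, minus strand: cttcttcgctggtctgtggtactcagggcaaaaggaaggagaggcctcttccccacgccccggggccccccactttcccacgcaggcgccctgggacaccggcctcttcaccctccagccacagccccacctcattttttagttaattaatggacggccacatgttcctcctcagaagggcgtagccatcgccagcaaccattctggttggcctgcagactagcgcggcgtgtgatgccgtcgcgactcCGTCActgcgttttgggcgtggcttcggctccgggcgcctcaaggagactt

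The Pdk4 window held 0 matches to any of these motifs. In Pdk2 there was 1 CACGTG, starting 126 bases before the start, and 1 TGACG, starting at base 43 of the transcript. Dlat and Pdha1 had 1 TGACG each, on the opposite strand, whose matches began 201 bases and 1 base before the start. Among 32851 promoter windows of the same length, 16.3% held AGGTCA, 0.0396% held it as a direct repeat with 1 base between, and 3.65% held GTAAACA. The cyclic AMP element TGACG was in 20.8%, CACGTG in 7.15% and TGTTCT in 19.0%. All 10 genes had a window in the RefSeq table, and 0 of the 10 held the nuclear receptor, FOXO or glucocorticoid receptor element. TGACG was in 5 of the 10 (Pdk2, Pdp2, Pdha1, Pdhb and Dlat) and CACGTG in 3 (Pdk2, Pdp2 and Pcx). A match is a description of letters, and the lack of one says nothing of a factor that binds elsewhere.

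**Figure D1:**
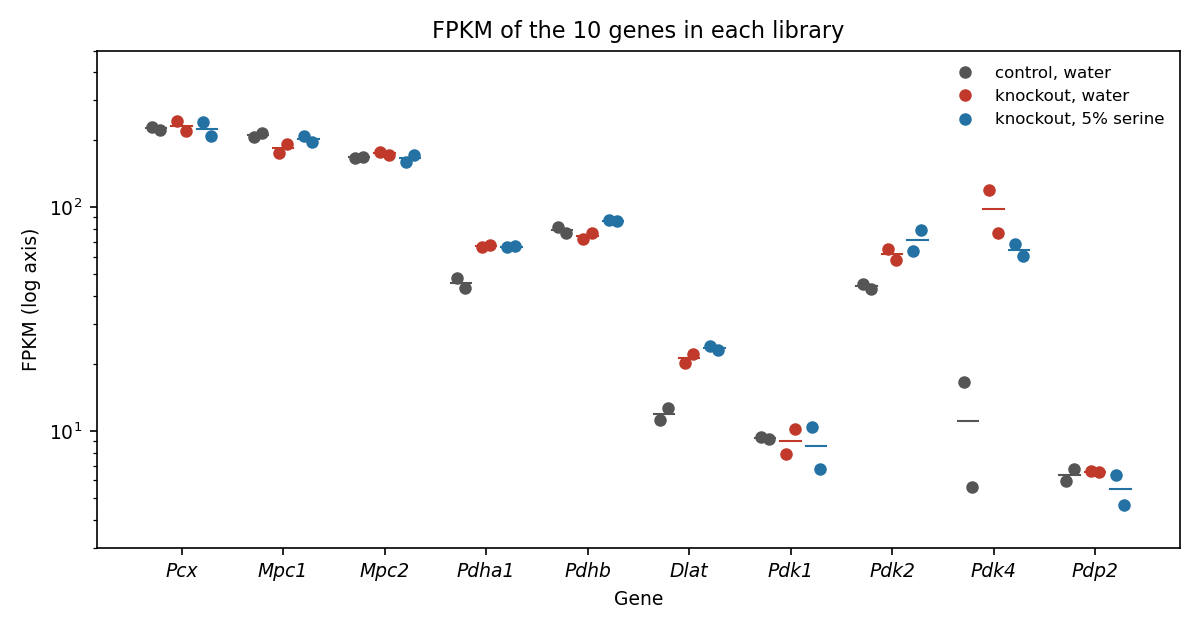
FPKM of the 10 genes on a log axis, by gene, with 1 point per library (a pool of 2 mice) and a line at the mean of each group's 2 libraries. Pdk4 is the gene whose groups lie farthest apart, from 5.63 and 16.5 FPKM in controls to 60.4 FPKM or more in every knockout library, while Pcx, Mpc1 and Mpc2 lie between 160 and 242 FPKM throughout.

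In the fasted control liver the 10 genes fell into clear tiers of FPKM, a unit already divided by gene length. Pcx (224.8 ± 4.79 FPKM, mean ± SD, n = 2) and Mpc1 (210.5 ± 6.35 FPKM) stood highest, followed by Mpc2 (166.7 ± 0.368 FPKM). The next were Pdhb at 78.8 ± 3.25 FPKM, Pdha1 at 45.9 ± 3.54 FPKM and Pdk2 at 44.4 ± 1.70 FPKM. Pdha1 and Pdk2 overlapped between libraries and cannot be ordered. The lowest tier held Dlat at 11.9 ± 1.03 FPKM, Pdk4 at 11.1 ± 7.71 FPKM, Pdk1 at 9.29 ± 0.106 FPKM and Pdp2 at 6.37 ± 0.587 FPKM, and the 2 control values of Pdk4 spanned the whole of that tier. By mean level Pdk4 ranked 8 of 10 in controls, 4 of 10 in knockouts on water and 7 of 10 in knockouts on serine. Pcx, Mpc1, Mpc2, Pdk1 and Pdp2 kept ranks 1, 2, 3, 9 and 10 in all 3 groups, although the libraries of Mpc1 and Mpc2 overlapped in knockouts on water.

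Pdk4 (ENSMUSG00000019577, chromosome 6, 5483351 to 5496309, minus strand, GRCm39) measured 16.54 and 5.63 FPKM in the control libraries. It measured 119.8 and 76.65 FPKM in knockouts on water, and 68.52 and 60.39 FPKM in knockouts on serine. All 4 knockout libraries lay above both controls, and both serine libraries lay below both water libraries. The 2 control values of Pdk4 also lay far from each other. Against control on water, Pdk4 rose in knockouts on water by 3.24 on the log2 scale of FPKM + 0.5 (SE 0.46). That is 9.43-fold, with a 95% interval of 4.34-fold to 20.5-fold and an adjusted p of 0.0378 in limma. Against the same controls the knockouts on serine stood 2.67 higher on that scale (SE 0.46), or 6.34-fold with an interval of 2.92-fold to 13.8-fold. This did not pass (adjusted p = 0.0522).

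The call in knockouts on water ended when any 1 library was left out, although Pdk4 stayed between 2.50 and 3.97 higher. Leaving out control replicate 1 or 2 gave an adjusted p of 0.0711 or 0.167, and leaving out knockout water replicate 1 or 2 gave 0.260 or 0.145. It was 0.0523 and 0.0520 without knockout serine replicate 1 or 2, which enter through the shared estimate of spread.

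Pdk4 is abundant in muscle and adipose tissue, so their markers were read in the same libraries. Of 7 skeletal muscle markers 1 had a mean of 1 FPKM or more (Mylpf), and Ckm, Acta1, Myh1, Myh4 and Tnnt3 were at or near 0. Their sum was 1.62 to 2.72 FPKM in controls, 2.20 to 3.30 FPKM in knockouts on water and 2.20 to 2.38 FPKM on serine. Of 6 adipose markers only Plin4, which encodes a lipid droplet protein, reached a mean of 1 FPKM, while Adipoq, Plin1, Lep and Retn were at or near 0. The adipose sum was 3.66 to 4.62 FPKM in controls, 10.5 to 18.7 FPKM in knockouts on water and 11.9 to 12.1 FPKM on serine.

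Among the other resident cells, the summed sinusoidal endothelial markers (7 of 7 with a mean of 1 FPKM or more) ran from 93.3 to 105 FPKM in controls. They ran from 109 to 126 FPKM in the 4 knockout libraries. Kupffer cell and macrophage markers (8 of 8) summed to 63.7 to 79.8 FPKM in controls, 71.2 to 84.4 FPKM in knockouts on water and 86.3 to 92.2 FPKM on serine. Stellate markers (5 of 8) summed to 54.2 to 73.7 FPKM, 66.8 to 79.7 FPKM and 84.3 to 97.7 FPKM in the same order of groups. Cholangiocyte markers (2 of 6) summed to 17.0 to 23.2 FPKM, 8.88 to 13.5 FPKM and 10.9 to 20.7 FPKM. Lymphocyte and neutrophil markers (3 of 8) summed to 5.61 to 7.23 FPKM, 6.11 to 6.16 FPKM and 4.06 to 4.15 FPKM. Erythroid markers (4 of 6) summed to 716 to 758 FPKM, 486 to 1042 FPKM and 912 to 930.0 FPKM. Pancreatic markers (1 of 6, Cela1) summed to 18.6 to 26.3 FPKM in controls, 8.97 to 10.6 FPKM on water and 13.88 to 15.03 FPKM on serine. Of all these markers, 1 cholangiocyte gene was called, in knockouts on serine against control. In that comparison 0.853% of all genes tested were called higher and 0.323% lower. Of the 6 cholangiocyte markers only Sox9 and Spp1 were abundant enough to test, and the direction of the call is not reported here. In bulk tissue, fewer cells of a type and less RNA per cell cannot be told apart, and the part of these shifts in the results was not tested.

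Pdk2, the most widely expressed kinase gene of the family (ENSMUSG00000038967, chromosome 11, 94917084 to 94932180, minus strand), was the main kinase transcript of control liver. It stood at 45.56 and 43.16 FPKM in controls, 65.02 and 57.85 FPKM in knockouts on water, and 63.98 and 79.24 FPKM on serine. Every knockout library was above both controls. Differences given as on water or on serine are those of knockouts with that drink against the water controls. The log2 difference was 0.46 on water (SE 0.15, adjusted p = 0.154) and 0.68 on serine (SE 0.15, adjusted p = 0.0673), and neither passed. Pdk1, a kinase gene known as a target of the hypoxia factor HIF1 (ENSMUSG00000006494, chromosome 2, 71703568 to 71734202, plus strand), read 9.36 and 9.21 FPKM in controls. It read 7.91 and 10.16 FPKM in knockouts on water and 10.38 and 6.75 FPKM on serine, so the groups overlapped. Its log2 difference on water was -0.05, with a 95% interval from -0.61 to 0.52. The fourth kinase gene, Pdk3, stayed between 0.03 and 0.56 FPKM and was too low to test.

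Summed over the 4 kinase genes, the level was 71.6 and 58.1 FPKM in controls, 193 and 145 FPKM in knockouts on water, and 143 and 146 FPKM on serine. Pdk4 made up 23.1% and 9.68% of that sum in the control libraries. Its share was 62.0% and 53.0% in knockouts on water and 47.9% and 41.2% on serine. In controls Pdk2 held 63.6% and 74.2% of the kinase sum, and in both knockout libraries on water Pdk4 had overtaken it. On serine the libraries were split: Pdk4 exceeded Pdk2 in replicate 1 (68.52 against 63.98 FPKM) and was below it in replicate 2 (60.39 against 79.24 FPKM). Shares and sums are descriptions of the libraries and carry no test, and a share within a library does not depend on how libraries are scaled.

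**Figure D2:**
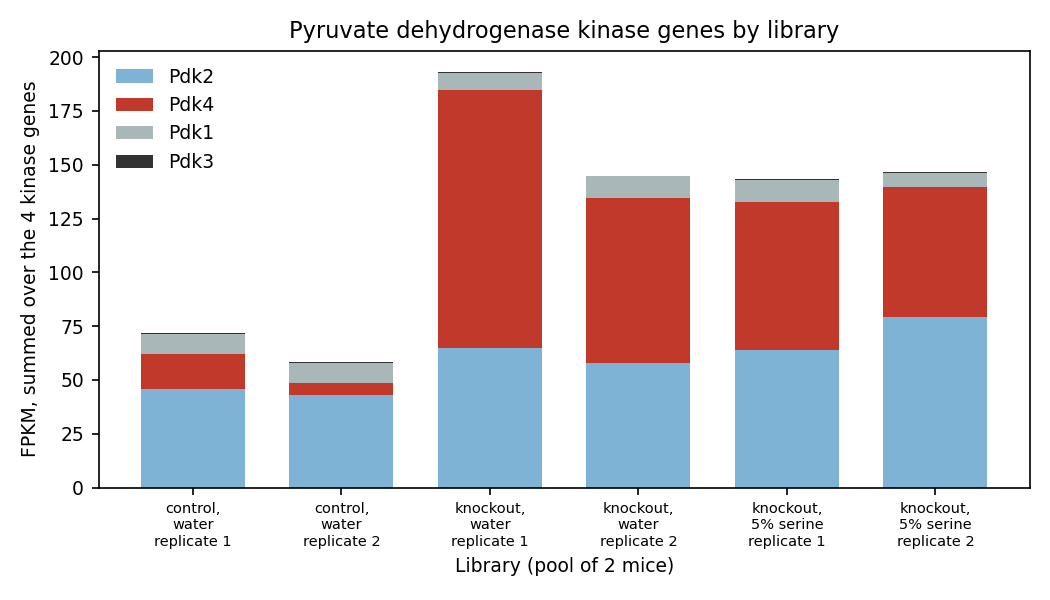
Stacked bars of FPKM for the kinase genes Pdk2, Pdk4, Pdk1 and Pdk3 in each of the 6 libraries, from a baseline of 0. The whole bar is 58.1 to 71.6 FPKM in controls and 143 to 193 FPKM in knockouts, and the Pdk4 part is at most 23.1% in controls and at least 41.2% in knockouts.

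Pdp2, a phosphatase gene that reactivates the complex (ENSMUSG00000048371, chromosome 8, 105318083 to 105325658, plus strand), had the lowest level of the 10. It read 5.95 and 6.78 FPKM in controls, 6.60 and 6.55 FPKM in knockouts on water, and 6.37 and 4.67 FPKM on serine. Control and knockout libraries overlapped on both drinking waters. The log2 difference was 0.05 on water (95% interval -0.42 to 0.51) and -0.20 on serine (-0.67 to 0.27). Pdp1, the calcium-activated phosphatase gene, read 0.48 to 0.94 FPKM and was not tested. The ratio of summed kinase to summed phosphatase FPKM was 11.1 and 7.99 in controls, 25.6 and 20.4 in knockouts on water, and 19.8 and 28.1 on serine. Without Pdk4 the same ratio was 8.56 and 7.21, 9.75 and 9.58, and 10.3 and 16.5.

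Of the 3 subunit genes, Dlat alone was called, in 1 comparison. Dlat, which encodes the acetyltransferase core (ENSMUSG00000000168, chromosome 9, 50545933 to 50571080, minus strand), stood at 11.19 and 12.65 FPKM in controls. It stood at 20.08 and 22.04 FPKM in knockouts on water and at 23.88 and 23.00 FPKM on serine. The 3 groups did not overlap, with the serine libraries highest. Dlat rose in knockouts on serine against control by 0.95 on the log2 scale (SE 0.14), or 1.93-fold with an interval of 1.53-fold to 2.44-fold (adjusted p = 0.0454). In knockouts on water it was 0.80 higher (SE 0.14, 1.74-fold with an interval of 1.38-fold to 2.19-fold), just outside the threshold (adjusted p = 0.0567). The serine call ended with every library left out, with an adjusted p of 0.241 and 0.165 without control replicates 1 and 2. It was 0.106 without either knockout water library, and 0.0622 and 0.155 without knockout serine replicates 1 and 2. With median-of-ratios scaling the adjusted p was 0.0758.

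Pdha1, on the X chromosome, encodes the alpha subunit that the kinases phosphorylate (ENSMUSG00000031299, 158905205 to 158921409, minus strand). It measured 48.41 and 43.40 FPKM in controls, 66.68 and 67.75 FPKM in knockouts on water, and 66.45 and 66.69 FPKM on serine. The 4 knockout libraries lay between 66.45 and 67.75 FPKM, above both controls. The log2 difference was 0.55 on water (SE 0.12, 1.46-fold, adjusted p = 0.0813) and 0.53 on serine (SE 0.12, 1.45-fold, adjusted p = 0.0686), and neither passed. Its testis-specific relative Pdha2 was listed at 0 in every library.

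Pdhb, the beta subunit gene (ENSMUSG00000021748, chromosome 14, 14296748 to 14303777, plus strand), is the partner of Pdha1 in the first enzyme. It read 81.12 and 76.52 FPKM in controls, 71.88 and 76.23 FPKM in knockouts on water, and 87.27 and 86.38 FPKM on serine. The water knockouts lay just below the controls and the serine knockouts above them. The log2 differences from control were -0.09 (95% interval -0.37 to 0.19) and 0.14 (-0.14 to 0.42), and neither passed. Within a library, the Pdha1 to Pdhb ratio was 0.597 and 0.567 in controls. It was 0.928 and 0.889 in knockouts on water and 0.761 and 0.772 on serine. The Dlat to Pdhb ratio was 0.138 and 0.165 in controls, 0.279 and 0.289 on water, and 0.274 and 0.266 on serine. Both ratios were chosen after the values were seen, carry no test and do not depend on library scaling.

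**Figure D3:**
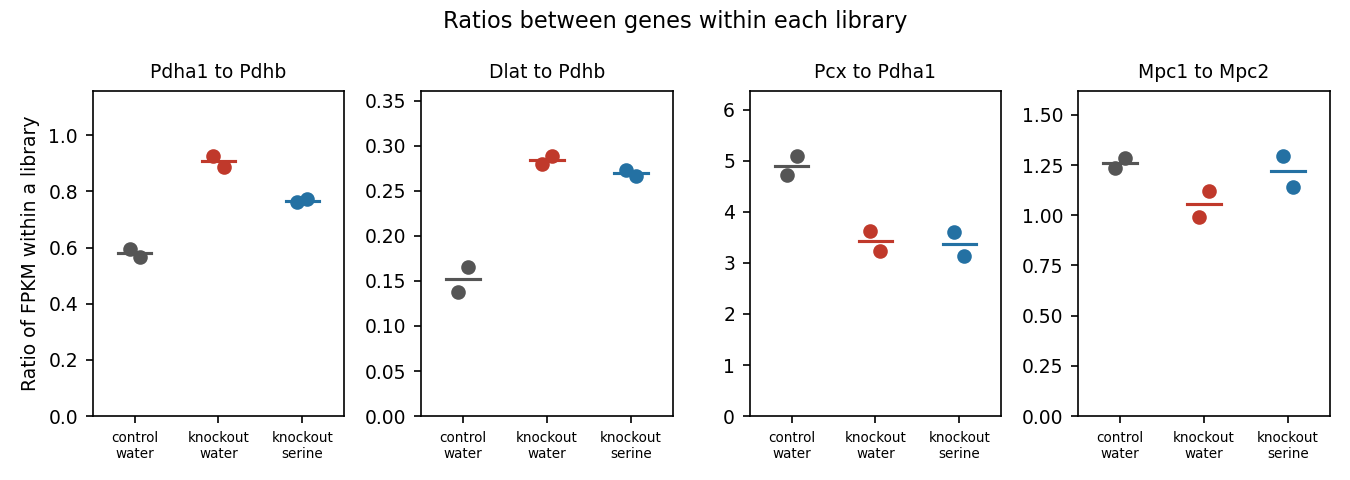
Ratios of FPKM between pairs of genes within each library, from a baseline of 0, with 1 point per library and a line at each group mean. Pdha1 to Pdhb and Dlat to Pdhb are higher in all 4 knockout libraries than in controls, Pcx to Pdha1 is lower (3.13 to 3.63 against 4.71 and 5.10), and Mpc1 to Mpc2 overlaps between controls and serine knockouts.

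Of the other genes of the complex and its regulation, 6 were found and 3 were abundant enough to test, and 0 were called in any comparison. Dld, the dihydrolipoamide dehydrogenase shared with other 2-oxoacid dehydrogenases, read 54.6 and 53.6 FPKM in controls. It read 72.7 and 70.5 FPKM on water and 70.7 and 81.3 FPKM on serine. Its log2 difference was 0.40 on water (adjusted p = 0.145) and 0.48 on serine (adjusted p = 0.0869). Pdhx, which anchors Dld to the core, was 11.9 and 13.0 FPKM in controls, 16.2 and 11.6 FPKM on water and 12.4 and 14.5 FPKM on serine, with overlap in each comparison. Pdpr, the regulatory subunit of the phosphatase, was 0.57 higher on serine (adjusted p = 0.248).

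For the genes of pyruvate entry and carboxylation, every 95% interval against control included no difference. Pcx (ENSMUSG00000024892, chromosome 19, 4560500 to 4671780, plus strand) measured 228.17 and 221.39 FPKM in controls. It measured 242.09 and 219.30 FPKM in knockouts on water and 239.10 and 208.75 FPKM on serine, with overlap throughout. The fold against control was 1.03 on water (95% interval 0.827 to 1.27) and 0.994 on serine (0.802 to 1.23). These intervals do not show that the level was the same, but they leave out a change as large as that of Dlat. The Pcx to Pdha1 ratio was 4.71 and 5.10 in controls, 3.63 and 3.24 on water, and 3.60 and 3.13 on serine.

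Mpc1 (ENSMUSG00000023861, chromosome 17, 8501736 to 8516493, plus strand) stood at 205.96 and 214.94 FPKM in controls, 175.24 and 191.89 FPKM on water, and 206.94 and 195.16 FPKM on serine. The water knockouts lay below both controls, by 0.20 on the log2 scale (SE 0.12, adjusted p = 0.380). The 95% interval of this difference was -0.48 to 0.09. Mpc2 (ENSMUSG00000026568, chromosome 1, 165288206 to 165308783, plus strand) stood at 166.41 and 166.93 FPKM in controls, 176.95 and 170.84 FPKM on water, and 159.51 and 170.99 FPKM on serine. Its fold was 1.04 on water (95% interval 0.863 to 1.26) and 0.991 on serine (0.820 to 1.20). The ratio of the carrier's subunits, Mpc1 to Mpc2, chosen after the values were seen, was 1.24 and 1.29 in controls, 0.990 and 1.12 on water, and 1.30 and 1.14 on serine.

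Genes on the opposite strand overlap Pdk2, Pdha1, Mpc1 and Pcx, and the use of strand in counting is not given in the sources used here. Their own levels were low, at most 1.88 FPKM (Lrfn4, within the Pcx locus). A processed copy of Mpc1 read 0 in 5 libraries and 2.09 FPKM in knockout water replicate 1.

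Set against all genes, the comparison of knockout with control on water called 1 of the 10 genes higher, where 0.808% of all genes tested were called higher. It called 0 lower, where 0.404% of all genes were. Both libraries of a group lay beyond both of the other for 5 of the 10 genes upward (34.4% of all genes) and for 2 downward (20.9%). An unadjusted p under 0.05 was found for 4 of the 10, against 21.6% of all genes. The median log2 change of the 10 was 0.05 and that of all genes 0.08. By size, without regard to sign, the Pdk4 change ranked 22 among the 11134 genes tested, and that of Dlat ranked 1133.

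For knockout on serine against control, 1 of the 10 was called higher (0.853% of all genes) and 0 lower (0.323%). Non-overlap held for 5 upward (41.5%) and 0 downward (15.5%), and 4 had an unadjusted p under 0.05 (25.7%). The median gene was itself shifted by 0.16 on the log2 scale, and by 0.02 with median-of-ratios scaling. Relative to that shift of 0.16, Pdk4 was 2.50 higher, Dlat 0.79, Pdk2 0.51 and Pdha1 0.37, while Mpc1, Mpc2 and Pcx stood at -0.23, -0.18 and -0.17. Both comparisons with control share the same 2 control libraries, so their likeness is no separate evidence. Over all genes, calls were 90 higher and 45 lower on water (61 and 48 with median-of-ratios scaling) and 95 higher and 36 lower on serine (16 and 20 with median-of-ratios scaling, 352 and 59 with TPM scaling).

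**Figure D4:**
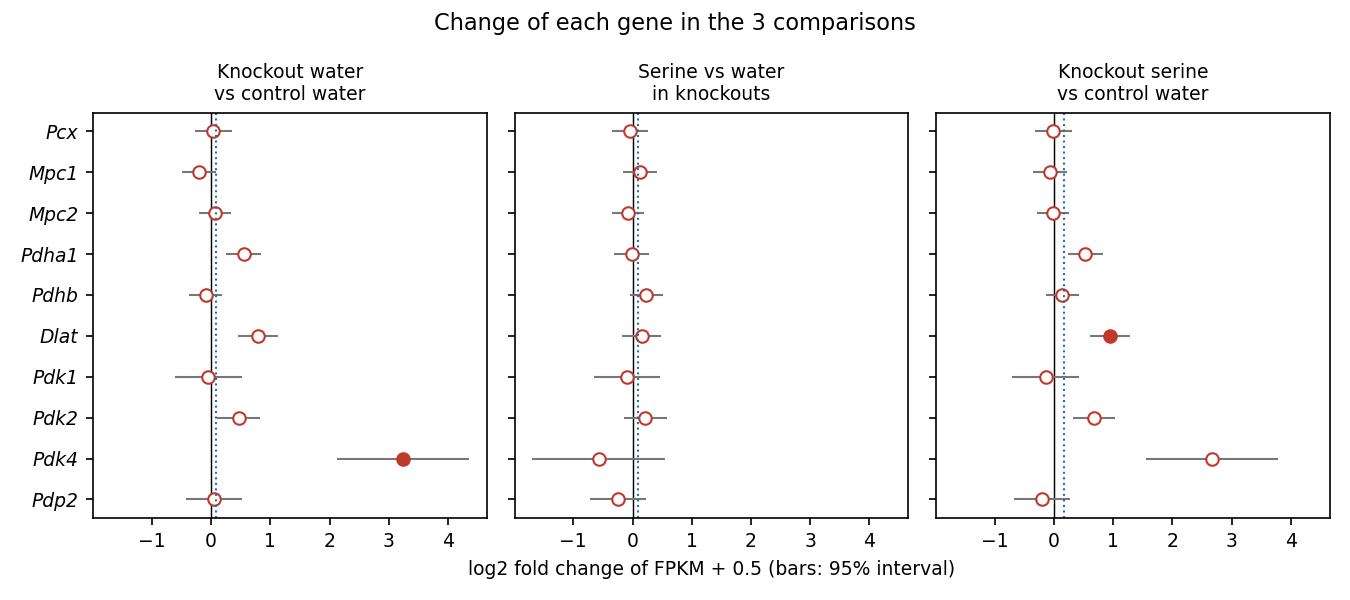
log2 fold change of FPKM + 0.5 for each of the 10 genes in the 3 comparisons, with 95% intervals from limma. Filled points passed an adjusted p of 0.05 (Pdk4 in knockouts on water, Dlat in knockouts on serine), and the dotted line is the median of all genes tested (0.08, 0.08 and 0.16).

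The comparison of knockouts given serine with knockouts given water holds the genotype fixed and varies the drink. Here 0 of 10 genes were called in either direction, where 0% of all genes were called higher and 0% lower in limma. An unadjusted p under 0.05 was found for 0 of the 10, and for 805 of all genes (7.23%). Pdk4 was lower on serine by 0.57 on the log2 scale (95% interval -1.69 to 0.55, adjusted p = 0.805), or 0.673 times the water level with an interval of 0.310 to 1.46. That the Pdk4 call against control held on water and not on serine is therefore no test of a serine effect. Non-overlap was found upward for Dlat, Pdhb and Mpc1, 3 of 10 against 26.9% of all genes. It was found downward for Pdk4 and Pdp2, 2 of 10 against 10.9%. Pdhb had the smallest p of the set, with a log2 difference of 0.23 (SE 0.12, adjusted p = 0.729), and Pdha1 had a difference of -0.01 with an interval of -0.31 to 0.28.

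Genes with a profile like that of Pdk4 were ranked by the root mean square difference of centred log2(FPKM + 0.5) over the 6 libraries, among 6953 candidates. Nearest was Lepr, the leptin receptor gene, with a difference of 0.14. It read 6.63 and 1.73 FPKM in controls, 51.95 and 38.05 FPKM on water, and 27.49 and 25.90 FPKM on serine. Lepr thus repeated the order of the Pdk4 libraries within controls as well as between groups. Next came Cpt1b, the muscle form of carnitine palmitoyltransferase (0.42), and Ppp1r3g, a glycogen-targeting phosphatase subunit (0.51). Cd36, a fatty acid transporter (0.55), and Spata24 (0.55) followed. Candidates needed a mean of 5 FPKM or more over all 6 libraries. The control means of Lepr (4.18 FPKM), Cpt1b (4.875 FPKM), Spata24 (2.70 FPKM) and Ppp1r3g (0.705 FPKM) were below that. These genes therefore passed only through the knockout libraries, and Ppp1r3g was near the floor in controls (0.69 and 0.72 FPKM). Cd36 read 17.8 and 11.5 FPKM in controls, 71.68 and 71.69 FPKM on water, and 109.6 and 63.4 FPKM on serine, so its serine and water libraries overlapped, unlike those of Pdk4. These 5 genes were chosen for their profile over the same libraries, so their levels are a description and their likeness carries no test. Cpt1b is also on the list of PPAR alpha targets below and is tested there only as a member of that list. Its likeness to Pdk4 and its call there rest on the same libraries and are no separate evidence.

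**Figure D5:**
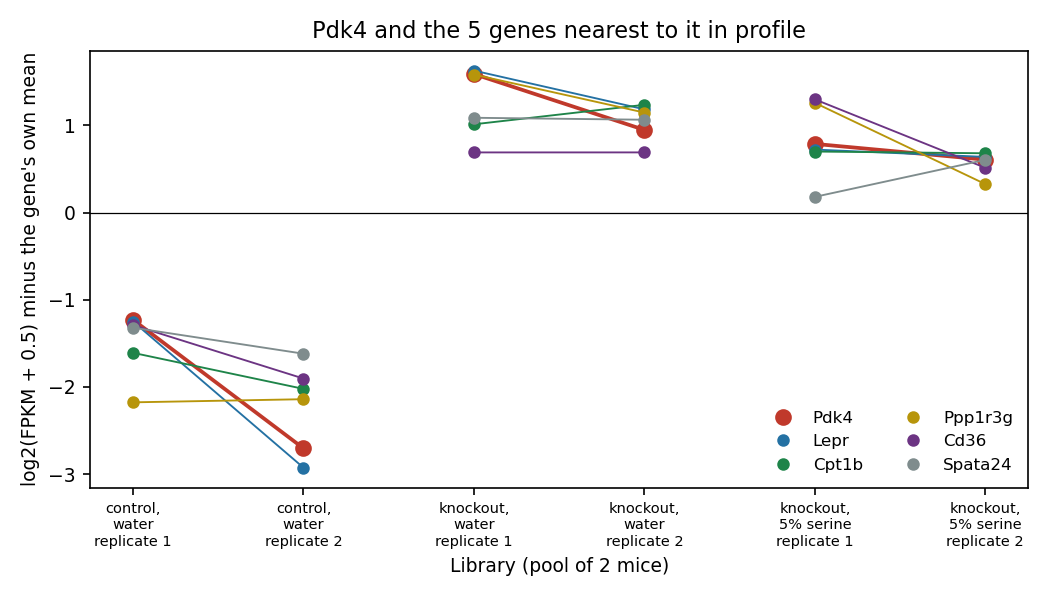
Centred log2(FPKM + 0.5) of Pdk4 and the 5 genes with the nearest profile, by library (a pool of 2 mice), with lines joining the 2 libraries of a group. All 6 genes lie below their own mean in both controls and above it in all 4 knockout libraries, and Lepr follows Pdk4 most closely.

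Factors known to act on Pdk4 were counted next. Of 20 tested, Ppargc1a, the PGC1 alpha coactivator, rose on water (log2 change 1.57, adjusted p = 0.0393) and on serine (1.54, adjusted p = 0.0454). It was the 1 gene of the list called in each, with 0 called lower. Over all genes tested, 0.808% were called higher and 0.404% lower on water, and 0.853% and 0.323% on serine. Ppargc1a read 3.43 and 2.47 FPKM in controls, 9.81 and 9.54 FPKM on water, and 7.86 and 11.2 FPKM on serine. Esrra, an orphan receptor that PGC1 alpha activates, had values of 1.06 on water (adjusted p = 0.101) and 1.39 on serine (adjusted p = 0.0547). Nr0b2, the repressor known as SHP, had a value of -3.10 on water (adjusted p = 0.0523), and Pparg one of 1.03 (adjusted p = 0.0760). Esrrg, a receptor gene related to Esrra, read 0.17 and 0.29 FPKM in controls, 0.83 and 2.07 FPKM on water, and 1.77 and 1.70 FPKM on serine. Its mean of 1.14 FPKM passed the filter only through the knockout libraries. The value of 1.62 on serine (adjusted p = 0.0745) therefore rests on a gene near the floor in controls. The list's median was 0.11 on water and 0.22 on serine, beside 0.08 and 0.16 for all genes. Serine against water called 0 of 20, with Nr0b2 at 1.12 (adjusted p = 0.703) and the lipogenic factor gene Srebf1 at 0.50 (adjusted p = 0.679).

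Of 22 other fasting targets of PPAR alpha, 5 rose on water (0.808% of all genes) and 0 fell (0.404%), with a median of 0.20. Among them were Cpt1b (2.94), Pex11a, a peroxisome division factor (1.32), Cidec, a lipid droplet protein (1.30), and the mitochondrial carrier Ucp2 (0.87). Against control on serine 1 was called higher (0.853% of all genes) and 0 lower (0.323%). This was Cpt1b (2.51, adjusted p = 0.0107), and the list median was 0.14. Pex11a (0.87, adjusted p = 0.0520) and Ucp2 (0.75, adjusted p = 0.0530) lay just outside the threshold there. In serine against water the list's median was -0.23, beside 0.08 for all genes. Of the 22, 0 were called and 5 had an unadjusted p under 0.05 (7.23% of all genes). Pdk4 at -0.57 lay beside Angptl4, an inhibitor of lipoprotein lipase (-0.59), and the lipid droplet coat gene Plin2 (-0.59). The knockout libraries on water are common to this comparison and the first, so opposite signs in them are no separate evidence.

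Among 22 tested enzymes and carriers that make, move or use pyruvate and its products, 1 rose on water and 2 on serine, and 0 fell. Over all genes tested, 0.808% were called higher and 0.404% lower on water, and 0.853% and 0.323% on serine. Cs, citrate synthase, which takes up the acetyl-CoA that the complex makes, rose on water (1.03, adjusted p = 0.0378) and on serine (1.16, adjusted p = 0.0370). It read 29.2 and 28.7 FPKM in controls, 62.7 and 56.7 FPKM on water, and 58.8 and 72.9 FPKM on serine. Mdh2, mitochondrial malate dehydrogenase, rose on serine (0.76, adjusted p = 0.0454) and had a value of 0.63 on water (adjusted p = 0.0580). Pck1, the gluconeogenic carboxykinase, had a value of 0.95 on water (adjusted p = 0.0602) and Ldha, lactate dehydrogenase A, one of -1.15 (adjusted p = 0.0758). The median was 0.25 on water and 0.36 on serine. Serine against water called 0 of 22, with Sdsl, a serine dehydratase-like gene, at -0.67 and Acly, ATP citrate lyase, at 0.66.

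Of 8 tested genes of the other 2-oxoacid dehydrogenases, which share the architecture of the complex, 0 were called in any comparison. On water 5 had an unadjusted p under 0.05 (21.6% of all genes), and on serine 6 (25.7%). Ogdh and Dlst, of the 2-oxoglutarate complex, had values of 1.01 and 0.67 on water (adjusted p = 0.0596 and 0.0735) and 1.01 and 0.81 on serine (adjusted p = 0.0538 and 0.0506). Bckdhb, of the branched-chain complex, had a value of 0.68 on water (adjusted p = 0.0586), and its phosphatase gene Ppm1k one of -0.95 (adjusted p = 0.0938). On serine the branched-chain subunits had values of opposite sign, with Bckdhb at 0.44 (adjusted p = 0.0935) and Bckdha at -0.50 (adjusted p = 0.0768). Bckdha read 119.4 and 127.4 FPKM in controls, 85.0 and 91.1 FPKM on water, and 90.8 and 83.0 FPKM on serine. The opposite directions of these branched-chain subunits were thus seen on water as well. Bckdk, the kinase of that complex, read 4.60 and 6.29 FPKM in controls, 4.40 and 5.98 FPKM on water, and 6.79 and 6.14 FPKM on serine.

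Cofactor supply gave 0 of 10 tested genes called in any comparison. Bola3, which helps build the iron-sulfur clusters that lipoate synthesis needs, had a value of 0.72 on water (adjusted p = 0.0839). In serine against water, Slc19a2, a plasma membrane thiamine transporter, stood at 0.56 (adjusted p = 0.646), and Lipt1, a lipoyltransferase gene, at 0.53 (adjusted p = 0.675). On serine against control, Nfu1, an iron-sulfur cluster carrier, stood at 0.57 (adjusted p = 0.0848). Of 8 other biotin enzymes beside Pcx, 0 were called. Acacb, the mitochondrial acetyl-CoA carboxylase, had a value of 0.84 on water (adjusted p = 0.125) and Pcca, of propionyl-CoA carboxylase, one of -0.54 (adjusted p = 0.171). On serine Pcca stood at -0.73 (adjusted p = 0.0848), Acacb at 0.75 (adjusted p = 0.121) and Mccc1, of methylcrotonyl-CoA carboxylase, at 0.48 (adjusted p = 0.170).

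Most calls among these listed genes, 7 on water and 4 on serine, ended when 1 control or knockout library of the comparison was left out. On water, 1 of the 7 (Cpt1b) remained without control replicate 1, without control replicate 2 or without the first knockout library on water, and 0 remained without the second. The highest adjusted p in those fits was 0.252, 0.231, 0.260 and 0.166. With either serine library left out 6 remained, and Ucp2 was lost (adjusted p = 0.0524 and 0.0520). On serine 0 of the 4 remained without either control, either knockout water library or knockout serine replicate 2, with a highest adjusted p of 0.241, 0.196, 0.106, 0.106 and 0.161. Without knockout serine replicate 1, 3 remained and Mdh2 was lost (adjusted p = 0.0535). Median-of-ratios scaling lost Cs, Cidec and Ucp2 on water and Cs, Mdh2 and Ppargc1a on serine, with a highest adjusted p of 0.0534 and 0.0773.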

How the data were processed

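The authors' deposited table gives FPKM per gene for 6 libraries. The submitters' processing notes name bcl2fastq, HISAT2 2.0.5 and GRCm39. The sources used here do not give the program behind the FPKM values, the annotation release or the strand setting. Gene coordinates are those of that table. Unannotated transcripts (295 rows) were left out.

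Genes with a mean of 1 FPKM or more (11134) were fitted as log2(FPKM + 0.5) with 3 group means in limma 3.58.1 under R 4.3.3 (lmFit, eBayes with trend=TRUE, 3 residual and 3.46 prior degrees of freedom). The pseudocount understates changes of low genes. P-values are two-sided and adjusted by Benjamini-Hochberg across the tested genes, separately for each comparison, and calls use 0.05. The fit was tested on simulated data. With FPKM rather than counts deposited, no count model was fitted. Fragments per library came from steps between low values of single-exon genes (82.0% to 87.3% of 457 to 509 genes were whole multiples within 0.03 beyond rounding, where chance gives 16.4% to 17.7%).

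The members and lists were chosen with earlier results of these data known. Every member was named, as were called genes and up to 4 with the smallest p per list; some listed genes are counted but not reported here by name. Lists have no set test. Profile likeness used genes with a mean of 5 FPKM or more. Promoters came from the RefSeq table (GRCm38.p6). Alternatives were other pseudocounts, filters, scalings, fits and left-out libraries.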

Additional observations from a re-analysis of the deposited data

How the results depend on the processing

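Pdk4 kept its direction under all 15 alternatives in each of the 3 comparisons, and Dlat, Pdha1 and Pdk2 did as well. The filters, the fit without a variance trend, the fit of only 4 libraries and the replicate block could not change it. They reuse the same group means, as does leaving out a library of the group not compared. Where groups do not overlap, leaving out a library cannot change the sign either. Pdha1 in serine against water ran from -0.0997 to -0.0024. Calls varied between settings. Of the 10 genes, 1 was called on water against control, 2 (Dlat and Pdk4) with the filter at 5 FPKM or TPM scaling, and 0 with no filter, no variance trend, only the 4 libraries compared or a replicate block. With a library left out the count was 0 in each fit. Pdk4 remained 3.24 higher with an adjusted p of 0.139 with no filter, 0.0668 with no variance trend, 0.0526 with only 4 libraries and 0.0505 with the replicate block. With a library left out it was between 2.50 and 3.97 higher. On serine against control, 1 gene was called, 2 with the filter at 5 FPKM or TPM scaling, and 0 with no filter, median-of-ratios scaling, no variance trend, only 4 libraries, the replicate block or any library left out. Pdk4 passed there with the filter at 5 FPKM (2.67, adjusted p = 0.0375) and with TPM scaling (2.74, adjusted p = 0.0390).

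Over all genes, 135 were called on water, 2 with no filter, 228 with TPM scaling, 16 with no variance trend, 210 with only 4 libraries, 4 with the replicate block, and 7 to 215 with a library left out. On serine against control 131 were called, 3 with no filter, 450 with the filter at 5 FPKM, 411 with TPM scaling, 36 with median-of-ratios scaling, 8 with no variance trend, 4 with only 4 libraries, 4 with the replicate block, and 4 to 203 with a library left out. Serine against water called 0, and 0 to 6 with a library left out. Some of these settings fit fewer samples or test more genes, and the cause of the differences in the counts was not tested.

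Genes near no difference changed sign. On water, Pdk1 was 0.0346 with TPM scaling, and with median-of-ratios scaling Pdp2 was -0.0235, Mpc2 -0.0137 and Pcx -0.0388. On serine against control, Pdhb was -0.0211 with median-of-ratios scaling, and with TPM scaling Mpc1 was 0.0136, Mpc2 0.0664 and Pcx 0.0710. With a library left out, on water Pdk1 ran from -0.22 to 0.12, Pdp2 from -0.0412 to 0.13 and Pcx from -0.0354 to 0.11. On serine against control Pdk1 ran from -0.43 to 0.15, Pdp2 from -0.41 to 0.0037, Mpc2 from -0.0632 to 0.0368 and Pcx from -0.11 to 0.0891. In serine against water Pdk1 ran from -0.39 to 0.20 and Pcx from -0.14 to 0.0533. The serine minus water difference of summed kinase FPKM ran from -48.5 to 0.125, the latter without knockout water replicate 1. That of the Pcx to Pdha1 ratio ran from -0.304 to 0.164, and was 0.127 without knockout water replicate 1.

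Replicate numbers showed no positive pairing of the libraries. Deviations of same-numbered libraries correlated at 0.03 (control and knockout on water), 0.04 (control and knockout on serine) and -0.20 (the knockouts). The negative value means that knockout libraries of unlike number tended to deviate alike. Mitochondrial genes held 9.70% and 12.6% of FPKM in knockouts on water and 12.0% and 8.89% on serine. What those libraries shared was not tested, and the block uses a number only. The alternatives for context genes were added after seeing the data: of 7 called on water and 4 on serine, no filter kept 0 and 0, no variance trend 1 and 1, and the block 1 and 0. Pdha1 and Pdk2 were called in 0 of the 15 alternatives in each comparison.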
